A study of Mus musculus with 4 samples.

Results

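Arhgef25, Tmem134, Hic1, Sgms2 and Gpi1 are 5 of the 19465 genes counted in every spot of this spatial RNA sequencing (Visium) data set of fetal mouse heads. They were taken by symbol, each symbol belonged to 1 identifier, and all 5 passed the filter on low counts in each fit. The genes were picked from levels measured in these same libraries, with their differences between stages and between capture areas in view. Those differences, and the stage fits given with them, are therefore a description and support nothing. Only the comparison between tissues is read as a test.

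The samples were coronal, formalin-fixed and paraffin-embedded sections of wild-type whole heads at embryonic day 14.5 (E14.5) and 15.5 (E15.5), with no treatment and no altered allele. Each stage had 2 capture areas, 1 holding the section of replicate 1 and 1 holding the 3 sections of replicates 2, 3 and 4. A capture area is 1 library, so the stages compare as 2 areas against 2, and the 3 sections of an area are called A, B and C because the labels do not say which is which replicate. The labels also do not tie areas to litters, so every p-value below refers to these libraries alone. In the stage fits it measures the spread of levels between them. In the comparison between tissues it measures how far the difference of a region from the rest, taken within each library, varies over the libraries.

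The 5 genes have unrelated products. Arhgef25 encodes GEFT, a guanine nucleotide exchange factor that couples Gq signalling to a small GTPase of the cytoskeleton. Tmem134 encodes a small transmembrane protein with little known function. Hic1 encodes a zinc finger transcriptional repressor of mesenchymal cells and a tumour suppressor. Sgms2 encodes the sphingomyelin synthase of the plasma membrane, which transfers a phosphocholine head group to ceramide, and in people SGMS2 variants cause skeletal fragility. Gpi1 encodes glucose-6-phosphate isomerase, the glycolytic enzyme that turns glucose-6-phosphate into fructose-6-phosphate in nearly every cell.

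In the GENCODE M21 annotation of GRCm38, Arhgef25 lies on chromosome 10 from 127182525 to 127190083 on the minus strand. Tmem134 lies on chromosome 19 from 4125934 to 4132307 on the plus strand and is annotated there as a processed transcript, while the other 4 genes are annotated as protein-coding. Hic1 lies on chromosome 11 from 75164565 to 75169519 and Gpi1 on chromosome 7 from 34201330 to 34230336, both on the minus strand. Sgms2 lies on chromosome 3 from 131318985 to 131491411 on the minus strand. Sgms2 overlaps the pseudogene Gm43116 and Gpi1 overlaps the long noncoding RNA Gm26762, each on the opposite strand. Whether the counting could tell these overlapping genes apart is not given in the sources used here.

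The data held 6357 spots over tissue, each covering a patch of tissue in which cells of several types can lie. The 4 areas held 1106 and 2310 spots at E14.5 and 989 and 1952 at E15.5, in the order replicate 1 and then replicates 2, 3 and 4. Depth was uneven. The median spot had 6752 UMIs (unique molecules counted) in the E14.5 replicate 1 area, 10037.5 in section A of the other E14.5 area, and between 38795 and 65616 in the remaining 6 sections. Levels are given as counts per 1000000 UMIs of the same spots (CPM), each with a 95% Poisson interval in the plots that covers counting error only. Pairs of areas shared between 540 and 1388 spot barcodes, which name positions on the array.

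Across whole heads, 4 of the genes separated the stages and Hic1 did not. Arhgef25 stood at 125 and 157 CPM at E14.5 and at 46.1 and 16.9 CPM at E15.5 (2 areas each). Tmem134 stood at 64.6 and 64.3 CPM at E14.5 and at 34.4 and 21.6 CPM at E15.5. Both E14.5 areas were thus above both E15.5 areas for these genes. Sgms2 went the other way, with 29.7 and 26.0 CPM at E14.5 and 45.6 and 59.4 CPM at E15.5. Hic1 overlapped between the stages, with 58.6 and 113 CPM at E14.5 and 94.3 and 93.9 CPM at E15.5. Gpi1 read 317 CPM in the E14.5 replicate 1 area, 374 and 504 CPM in the E15.5 areas, and 28.9 CPM in the E14.5 area of replicates 2, 3 and 4, so both E15.5 areas were above both E14.5 areas while the E14.5 areas lay far apart. Among the 8731 genes with a mean of at least 20 CPM, the 2 areas of E15.5 exceeded the 2 of E14.5 for 21.3% and the reverse held for 18%.

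**Figure D1:**
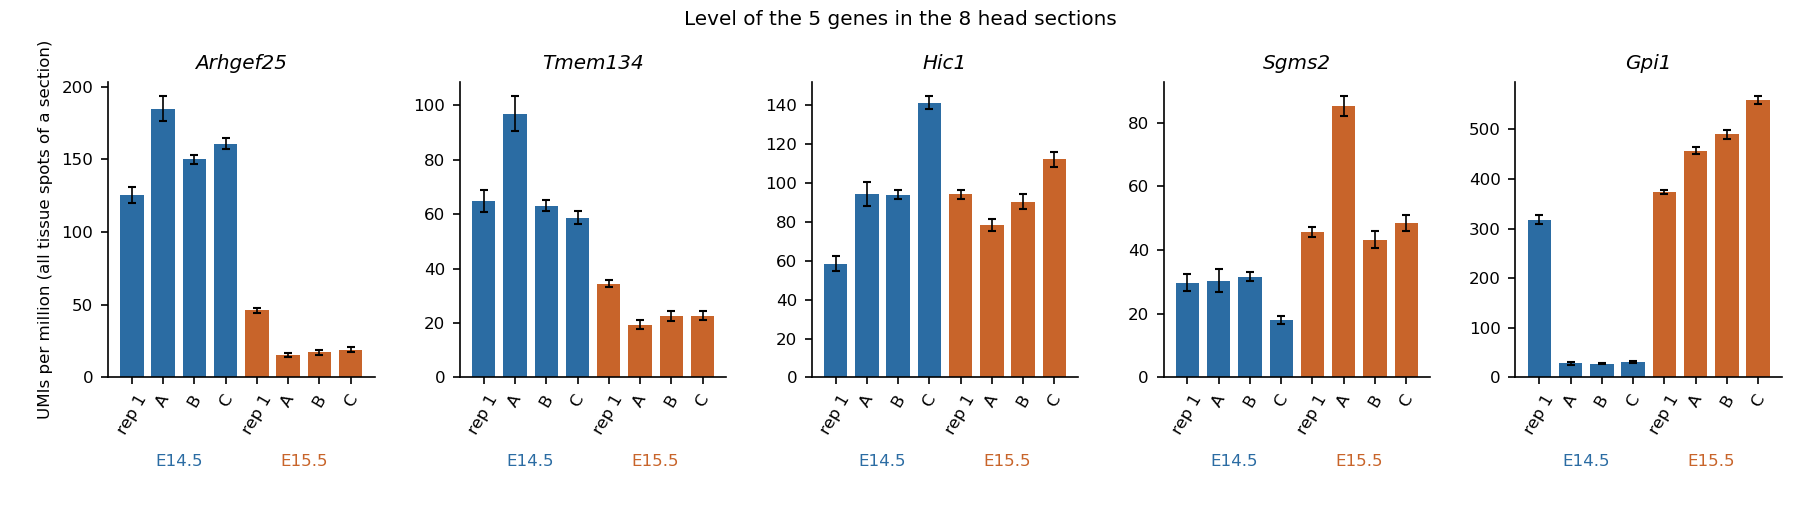
Level of each gene in the 8 head sections, in CPM over all tissue spots of a section, with E14.5 in blue and E15.5 in orange. Bars are single sections and lines are 95% Poisson intervals. Arhgef25 and Tmem134 were lower in all 4 E15.5 sections, and Gpi1 lay between 27.6 and 30.7 in sections A, B and C at E14.5 against 317 or more elsewhere.

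The stage means of Arhgef25 lay further apart than the 2 areas of either stage did. Its level at E14.5 was 2.72-fold the E15.5 level in the replicate 1 areas and 9.31-fold in the areas of replicates 2, 3 and 4. Sections of 1 area were close together, at 185, 150 and 161 CPM in sections A, B and C at E14.5 and 15.4, 17.2 and 19.1 CPM in those at E15.5. The stage difference on the log2(CPM + 1) scale was −2.28, and 83.6% of the variance over the 4 areas lay between the stage means, against a median of 33.2% over the 8731 genes. Arhgef25 was the 1 gene of these, 0.0115%, in which the lower E14.5 area was more than 2-fold above the higher E15.5 area. In the opposite direction 4 genes did so, or 0.0458%, namely the epidermal genes Dmkn, Krt77, Krtdap and Lor. The E15.5 areas were themselves apart by 2.73-fold, as far as the stages were in the replicate 1 areas (2.72-fold).

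The lower Arhgef25 level at E15.5 was seen in every tissue. Spots were assigned to marker regions by the highest score among lists of cell type markers, none of which holds any of the 5 genes, and 11 groups of spots had at least 10 spots in all 4 areas, spots of no region included. In all 11, both E14.5 areas lay above both E15.5 areas, with log2 differences between −2.58 in oral-palatal mesenchyme and −2.15 in spots of no region. Bone spots had 151 and 162 CPM at E14.5 and 46.5 and 17.3 CPM at E15.5. Neuron spots, with the lowest Arhgef25 in 3 of 4 areas, had 98.2 and 89.5 CPM at E14.5 and 38.4 and 8.29 CPM at E15.5. The groups did not overlap in either tissue. Separation in every one of the 11 groups in this direction was found for 22 of the 8731 genes, or 0.252%, and Tmem134 was also among them.

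Tmem134 showed a smaller and more even stage difference than Arhgef25. Its E14.5 level was 1.88-fold the E15.5 level in the replicate 1 areas and 2.98-fold in the other areas, and 87.5% of its variance over areas lay between the stages. The E14.5 areas were nearly equal, while the E15.5 areas differed by 1.59-fold. Section A at E14.5, the shallow section, read 96.9 CPM (95% interval 90.7 to 103), above the 58.7 to 64.6 CPM of the other E14.5 sections. Both E14.5 areas exceeded both E15.5 areas in all 11 groups of spots, with log2 differences from −1.75 in cartilage to −1.02 in spots of no region. In surface epithelium, where Tmem134 was highest, it read 119 and 103 CPM at E14.5 and 46.9 and 27.2 CPM at E15.5.

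No gene passed the stage comparison over all genes in edgeR, in which 0% of 15609 genes had an adjusted p under 0.1 in either direction. At an unadjusted p under 0.05 there were 930 genes, and DESeq2 called 37, of which 20 were higher and 17 lower at E15.5. Arhgef25 and Tmem134 were among the 17 (adjusted p = 0.00247 and 0.0937, DESeq2), and the other members were not called. The edgeR log2 differences were −2.23 ± 0.45 (SE) for Arhgef25, −1.26 ± 0.29 for Tmem134, 0.06 ± 0.33 for Hic1, 0.85 ± 0.26 for Sgms2 and 1.32 ± 0.84 for Gpi1, with n = 2 areas per stage. Since the genes were picked from levels in these same libraries, these values are a description. Space Ranger, the software that made the counts, was of version 1.3.1 for both replicate 1 areas and 2.0.0 for both others, so its version differed within a stage and not between the stages.

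**Figure D2:**
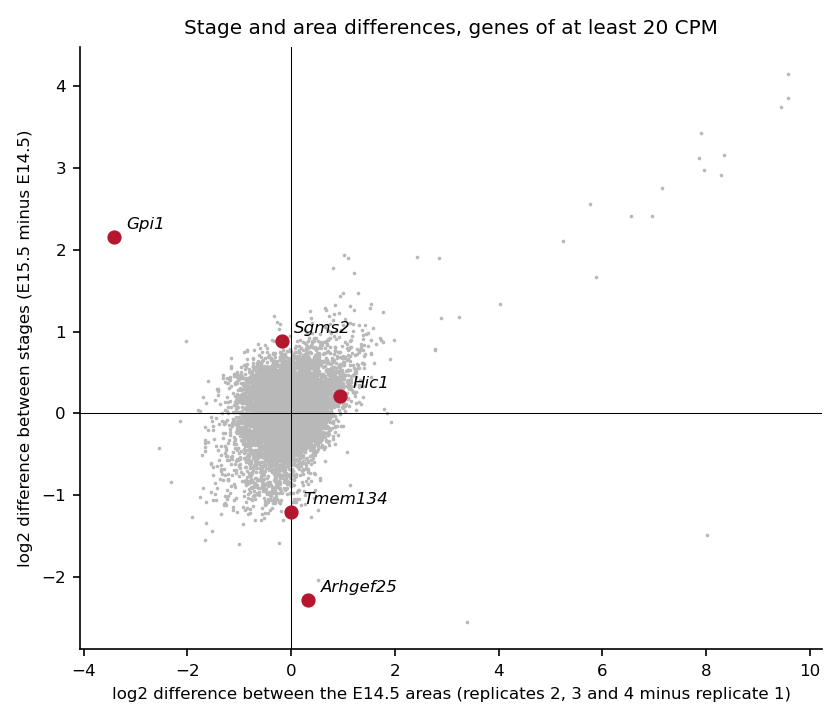
Each grey point is 1 of 8731 genes with a mean of at least 20 CPM, placed by the log2 difference between the E14.5 areas on the x axis and by the log2 difference between the stages on the y axis. The 5 genes are in red. Arhgef25 sits at −2.28 on the y axis, and Gpi1 sits alone at the left with −3.41 between the E14.5 areas and 2.16 between the stages.

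Gpi1 was low in 1 capture area. The E14.5 area of replicates 2, 3 and 4 read 28.9 CPM, and the other areas were 10.98-fold (E14.5 replicate 1), 12.9-fold (E15.5 replicate 1) and 17.4-fold (E15.5 replicates 2, 3 and 4) above it. All 3 of its sections read alike, with 28.2, 27.6 and 30.7 CPM in sections A, B and C, although section A was shallow and the other 2 were deep. The E15.5 sections read 374 CPM in replicate 1 and 457, 490 and 559 CPM in sections A, B and C. The replicate 1 area of E14.5 was therefore 0.848 times the E15.5 area of the same number, while the areas of replicates 2, 3 and 4 differed between stages by 17.4-fold.

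Gpi1 was the 1 gene of 8731 that was more than 4-fold lower in this area than in each of the other 3. Its log2 level minus the mean of the other areas was −3.71, when the next lowest gene was at −1.93 and the SD over all genes was 0.374. Of the 11 groups of spots, Gpi1 was lowest in this area in all 11, with gaps from −3.81 to −2.91, which 6.22% of genes also showed in rank. Skeletal muscle spots had 424 CPM in the E14.5 replicate 1 area, 38.2 CPM in the area of replicates 2, 3 and 4, and 529 and 646 CPM in the E15.5 areas. Neuron spots had 264 and 19.8 CPM at E14.5 and 223 and 308 CPM at E15.5.

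The other glycolysis genes that were measured did not share the gap. Tpi1, Eno1, Ldha and Ldhb were not counted in these data. Of the list of 18 glycolysis genes and glucose transporters, 12 were listed under 1 identifier at a mean of at least 20 CPM. Their gap in the same area ran from −0.92 to 0.48 with a median of 0.06, against a median of −0.02 over all 8731 genes. Pkm, the pyruvate kinase, read 738 CPM in that area and 696, 776 and 658 CPM in the others, in the order E14.5 replicate 1, E15.5 replicate 1 and E15.5 replicates 2, 3 and 4. Pgam1, the phosphoglycerate mutase, read 465 CPM there against 303, 348 and 400 CPM. The lowest of the list was Pfkp, a phosphofructokinase, at 24.6 CPM against 68.7, 46.7 and 33.4 CPM. What set the Gpi1 level of this area was not tested.

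**Figure D3:**
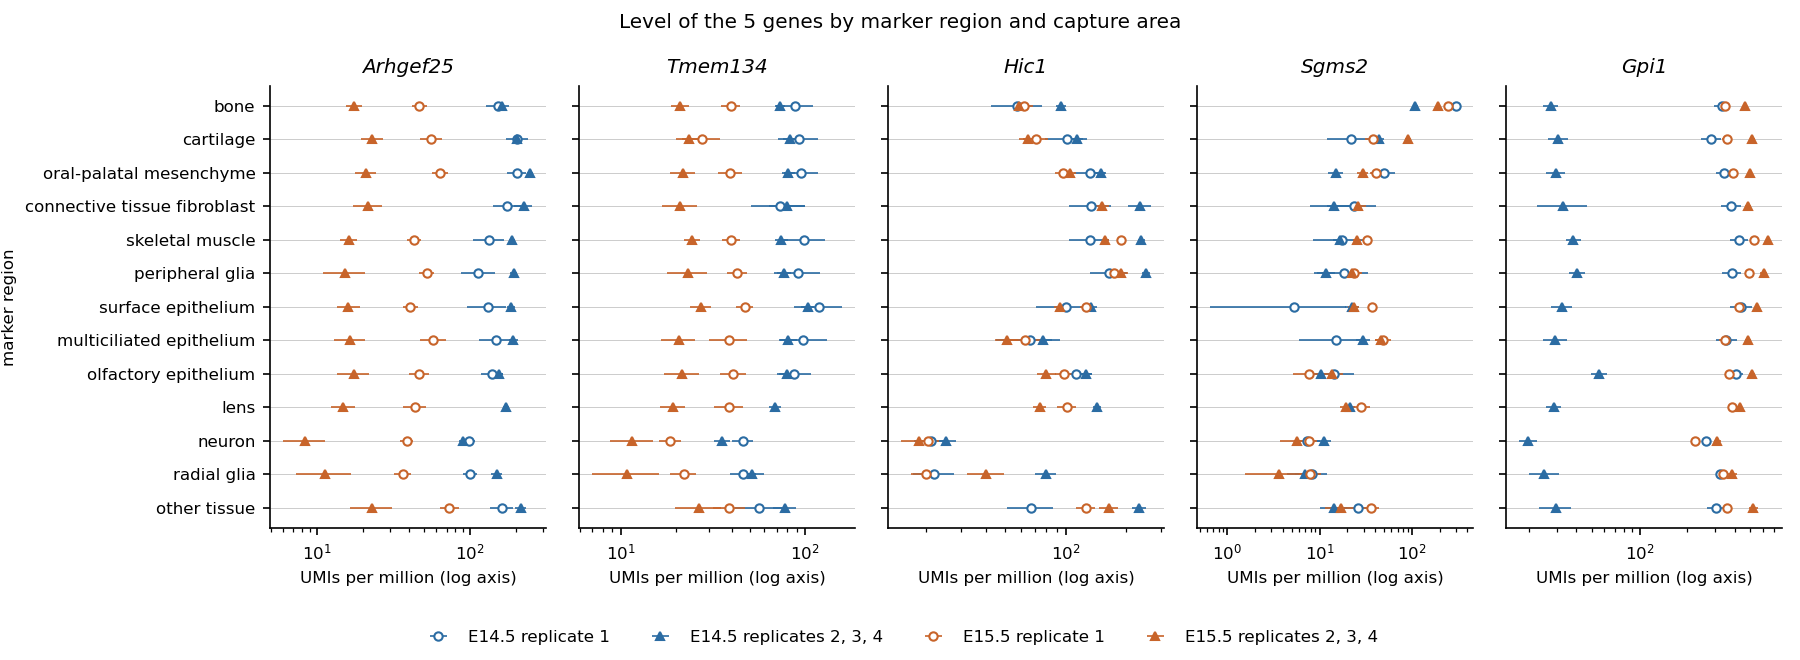
Level of each gene by marker region in CPM on a log axis, with open circles for the replicate 1 areas and filled triangles for the areas of replicates 2, 3 and 4, E14.5 in blue and E15.5 in orange. Lines are 95% Poisson intervals, and points are shown for at least 10 spots. Gpi1 in the E14.5 area of replicates 2, 3 and 4 lies apart from the other 3 areas in every region shown, and Arhgef25 keeps the same order of areas in nearly every region.

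The tissue pattern of each gene was tested by setting the UMIs of a region against those of all other tissue spots of the same area, with the area as a block, over all genes (edgeR, adjusted p under 0.1). Each list was high in its own region by construction, since spots were assigned by these lists, so this does not check the names. The bone list, for example, stood at 5907 to 8664 CPM in bone spots and 594 to 2361 CPM over all tissue. Spots named for peripheral glia also held muscle markers at 9135 to 18617 CPM, against 19862 to 25366 CPM in muscle spots, so both regions hold muscle RNA. The cartilage list stood at 6231 to 12069 CPM in olfactory epithelium spots and at 5002 to 11324 CPM in multiciliated epithelium spots, against 3009 to 6040 CPM over all tissue, while their own lists stood at 619 to 915 and 245 to 483 CPM. Oral-palatal mesenchyme spots held the surface epithelium list at 2141 to 3464 CPM, against 590 to 1880 CPM over all tissue. In the same way, surface epithelium spots held the fibroblast list at 7991 to 9887 CPM, against 3955 to 6921 CPM. The part of these other tissues in the calls below was not tested. Choroid plexus spots were not tested, since 2 areas alone had 10 of them. In the E14.5 area of replicates 2, 3 and 4 those spots carried the neuron list at 5927 CPM, and in the E15.5 area of replicates 2, 3 and 4 they carried the bone list at 4257 CPM, so the name does not describe them. In these spots fewer cells of a type and less RNA per cell cannot be told apart.

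Of the 60 pairs of a gene and a region, 32 passed, and without the area as a block 10 did, 5 of Hic1 and 5 of Sgms2. Brain and bone regions separated the most genes of any kind. All 5 genes passed in neuron spots, where 77.6% of all genes tested did, and 4 of 5 passed in radial glia (55.2%), bone (52.7%), surface epithelium (47.1%), skeletal muscle (44.6%) and peripheral glia (36.1%). In connective tissue fibroblast spots 3 passed (27.6%). In each of oral-palatal mesenchyme (32.1%), multiciliated epithelium (32.1%), olfactory epithelium (27.6%) and cartilage (23.2%) 1 gene passed. None passed in lens spots in edgeR (4.76%), where Sgms2 had an unadjusted p of 0.0219 and was called by DESeq2. With 5 genes, such counts carry little weight against these shares, and the sizes of the changes are given below.

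**Figure D4:**
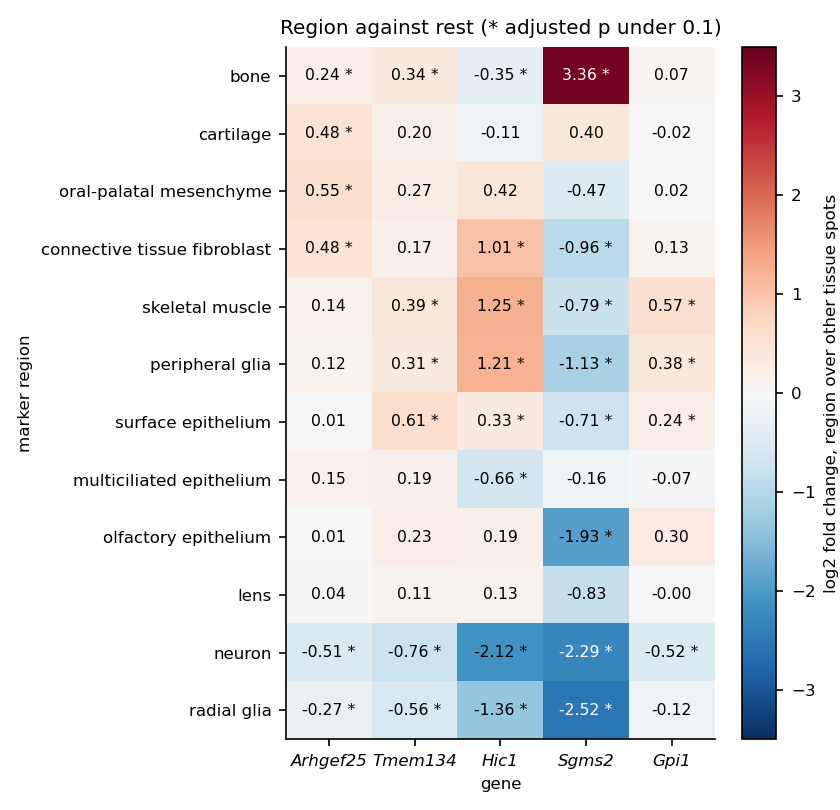
Log2 fold change of each gene in each of 12 marker regions over all other tissue spots (edgeR, capture area as a block), with an asterisk where the adjusted p was under 0.1. Sgms2 in bone (3.36) is the largest rise, and neuron spots are lower for all 5 genes.

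Sgms2 was the gene with the strongest tissue pattern, and it marked bone. In bone spots it read 298 and 109 CPM at E14.5 and 247 and 190 CPM at E15.5. In all other spots it read 13.99 and 15.5 CPM at E14.5 and 24.0 and 31.7 CPM at E15.5, so each area had far more in bone. Bone was 21.3-, 7.06-, 10.3- and 5.99-fold above the rest in the order of areas used so far, and the edgeR log2 fold change was 3.36 ± 0.26 (SE, n = 4 areas, adjusted p = 1.68e-04). Genes higher in bone made up 25.5% of 14350. Bone spots held 55.5%, 47.1%, 52.4% and 55.8% of all Sgms2 UMIs but 5.53%, 11.2%, 9.65% and 17.4% of all UMIs. The range of Sgms2 over regions averaged 4.90 log2 units, more than that of 97.7% of genes.

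Away from bone Sgms2 was lower, though not low in every tissue. Cartilage spots read 21.6 and 44.5 CPM at E14.5 and 38.2 and 90.4 CPM at E15.5, which was 0.72-, 1.79-, 0.83- and 1.59-fold the rest. Sgms2 was called lower in 7 regions and in no other region higher, while cartilage, oral-palatal mesenchyme, multiciliated epithelium and lens did not pass. Radial glia spots read between 3.60 and 8.16 CPM in the 4 areas (log2 fold change −2.52 ± 0.29, adjusted p = 0.00104 in edgeR), where 25.9% of genes were higher and 29.3% lower. Neuron spots read between 5.66 and 11.1 CPM (−2.29 ± 0.33, adjusted p = 8.96e-04). Olfactory epithelium spots read between 7.72 and 14.2 CPM (−1.93 ± 0.23), which overlaps the neural regions. Surface epithelium was the lowest region in the E14.5 replicate 1 area, at 5.29 CPM from 2 UMIs (95% interval 0.64 to 19.1), and read 22.4 CPM in the other E14.5 area and 37.4 and 23.4 CPM at E15.5. Surface epithelium was lower (−0.71), as were peripheral glia (−1.13), fibroblast (−0.96) and muscle (−0.79). Without the E15.5 area of replicates 2, 3 and 4, the fibroblast and surface epithelium calls did not pass in edgeR (adjusted p = 0.183 and 0.132). Without E14.5 replicate 1, cartilage passed as higher (0.0341) and oral-palatal mesenchyme as lower (0.0371), and lens, with 2 areas left, passed as lower without either area of replicates 2, 3 and 4 (0.0366 for E14.5 and 0.0172 for E15.5).

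The whole-head levels of Sgms2 did not follow the share of bone spots in every section, and bone spots themselves overlapped between stages. Bone spots were 7.89% of the replicate 1 section and 5.27%, 10.9% and 8.23% of sections A, B and C at E14.5, and 9.63%, 18.4%, 12.9% and 16.3% of those at E15.5. The whole sections read 29.7, 30.3, 31.6 and 17.9 CPM at E14.5 and 45.5, 85.2, 43.2 and 48.5 CPM at E15.5. Section B at E14.5 had a larger share of bone spots than the E15.5 replicate 1 section and less Sgms2. Sections A, B and C at E15.5 had larger shares than any E14.5 section and more Sgms2, and E15.5 section A had the most of both. The part of bone spots in the stage difference was not tested. Within bone spots the sections read 298 CPM (replicate 1) and 168, 132 and 69.5 CPM (A, B and C) at E14.5, and 247, 236, 160 and 140 CPM at E15.5. These ranges cover each other. In the remaining spots the sections read 14, 19.8, 17.9 and 11.5 CPM at E14.5 and 24.0, 40.2, 25.6 and 30.8 CPM at E15.5, without overlap. The remaining spots were not free of bone RNA. Cartilage spots carried the bone list at 545 and 1193 CPM at E14.5 and at 831 and 1553 CPM at E15.5. Radial glia spots carried it at 132 and 205 CPM, then 109 and 153 CPM. Spots named choroid plexus in the E15.5 area of replicates 2, 3 and 4 carried it at 4257 CPM, with Sgms2 at 86.6 CPM. The part of this bone RNA in the difference was not tested. Over the 11 groups of spots, both E15.5 areas were above both E14.5 areas in 4. With each group given equal weight the stage difference was 0.42 in place of 0.88 on the log2(CPM + 1) scale.

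**Figure D5:**
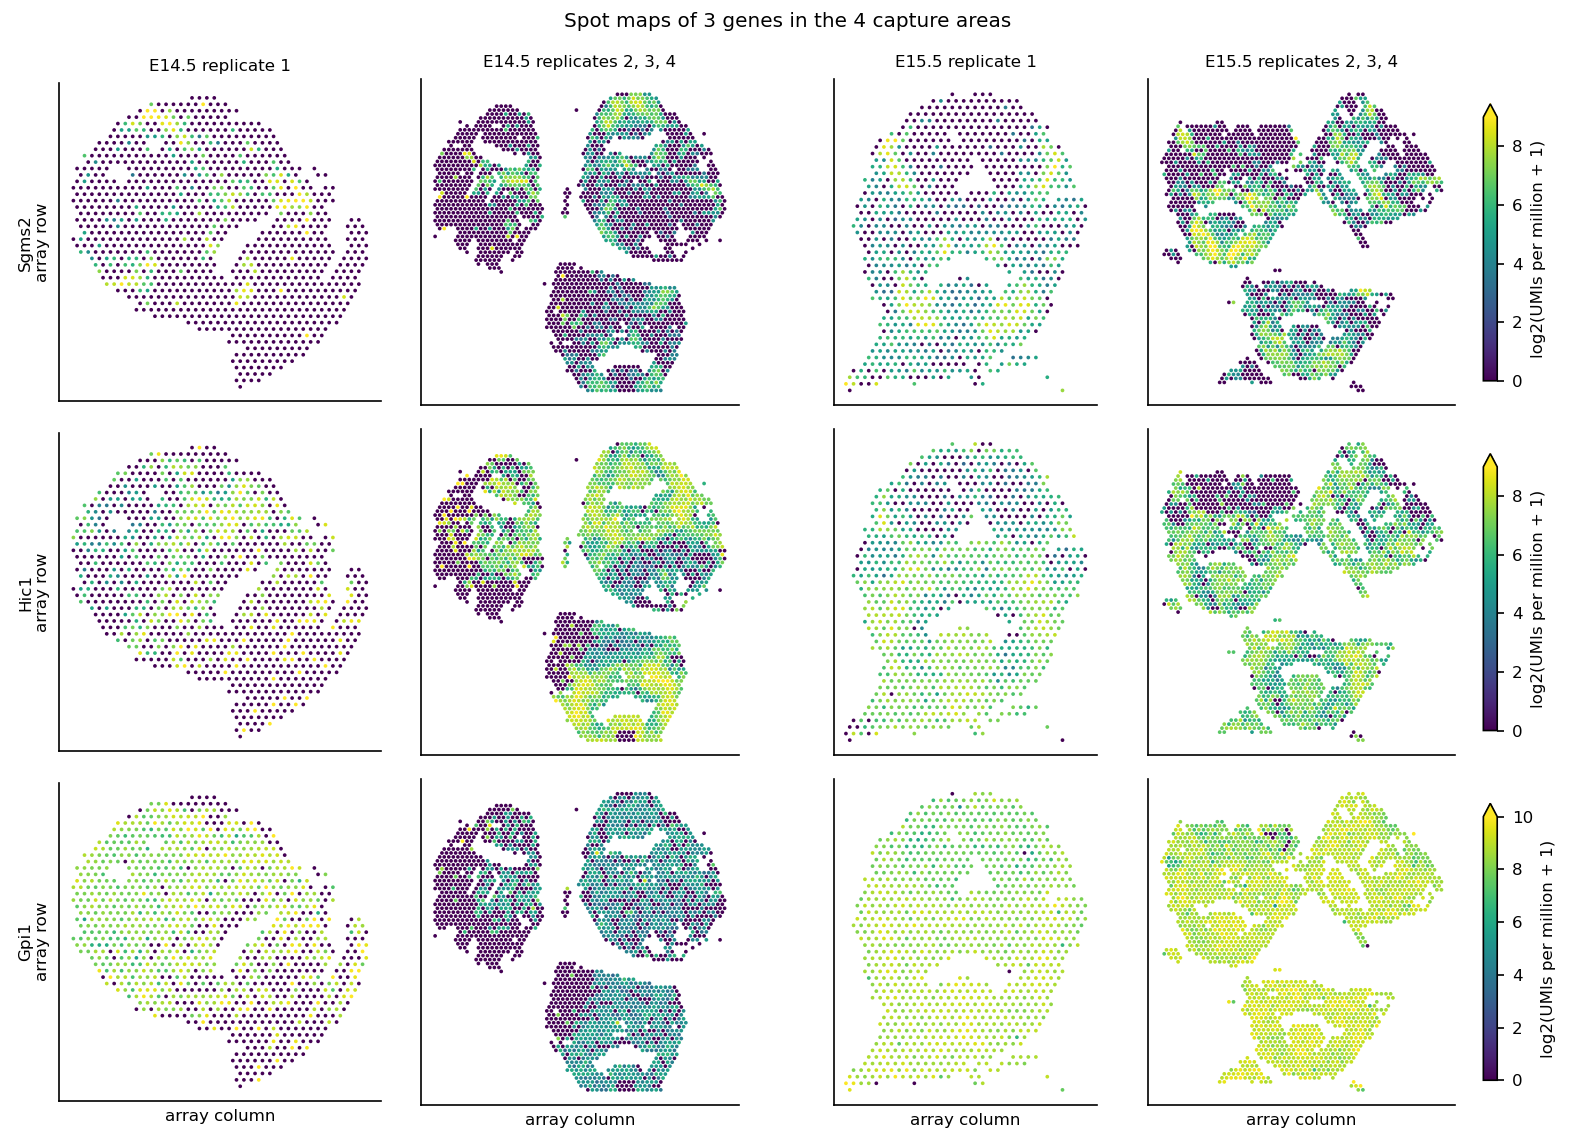
Spot maps of Sgms2, Hic1 and Gpi1 in the 4 capture areas, each point a spot at its array position, coloured by log2(CPM + 1) on 1 scale per gene, with the highest 1% or less above the scale. Sgms2 is high in small bright patches, Hic1 is broad and dark over the brain, and Gpi1 is low across the whole E14.5 area of replicates 2, 3 and 4.

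The genes most like Sgms2 across tissues were bone genes. Over 52 pairs of region and area, with levels centred within each area, the highest correlations among 8730 genes were with Phospho1 (r = 0.958), Ifitm5 (0.944), Spp1 (0.936), Panx3 (0.932) and Slc13a5 (0.927). Phospho1 encodes a phosphatase of matrix vesicles that acts on phosphocholine and starts mineral formation, Ifitm5 a membrane protein of osteoblasts and Spp1 the matrix protein osteopontin. Ifitm5 and Spp1 were themselves in the list that defined bone spots. The points share libraries, depth and the region definition, so the values are descriptive.

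Enzymes around Sgms2 in sphingomyelin and ceramide metabolism were mixed in bone. Of 20 listed genes, 19 were tested in bone, of which 6 were higher and 4 lower, when 25.5% of all genes were higher and 27.2% lower, with a median log2 of 0.06 against −0.01 over all genes. The largest rise was in Smpd3, the neutral sphingomyelinase that splits sphingomyelin (2.56 ± 0.06 SE), then Degs1, which makes ceramide (0.53 ± 0.12), and the ceramidase Asah1 (0.44 ± 0.10). The ceramide synthases Cers1 (−0.68), Cers4 (−0.52) and Cers6 (−0.49) were lower. Sgms2 and Smpd3, which make and split sphingomyelin, were thus both high in bone spots.

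Since Sgms2 marked bone, the 250 bases before its annotated starts were searched on both strands for tgtggt, the core of the site bound by RUNX factors, which direct osteoblast formation. RefSeq (GRCm38.p6) gives 6 starts for Sgms2, and the window of 1 of them held the letters once. The window is shown to place that match, 5′ to 3′ on the minus strand of chr3:131491444-131491693, with the match in capitals.
Sgms2: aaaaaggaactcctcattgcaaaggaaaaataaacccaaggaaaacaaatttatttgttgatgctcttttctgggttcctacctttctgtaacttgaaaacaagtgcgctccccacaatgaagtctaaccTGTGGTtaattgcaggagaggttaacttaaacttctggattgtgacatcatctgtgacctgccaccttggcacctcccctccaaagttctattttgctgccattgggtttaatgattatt
Of 32851 such windows over all genes, 14% held these letters, so 1 match in 6 windows is near that share. The 1 window of Gpi1 held no acgtg, the core of the hypoxia response element, which 16.6% of windows held. Windows were found for 3 of the 5 genes.

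Hic1 was high in muscle, peripheral glia and fibroblast spots and low in neuron and radial glia spots. Skeletal muscle spots read 131 and 238 CPM at E14.5 and 189 and 158 CPM at E15.5, between 1.95- and 2.36-fold above the rest (log2 fold change 1.25 ± 0.09 SE, n = 4 areas, adjusted p = 2.57e-05 in edgeR). Peripheral glia spots read 164, 253, 173 and 188 CPM (1.21 ± 0.10, adjusted p = 1.97e-04), beside the muscle markers they hold. Nerve and muscle cannot be told apart as the source of Hic1 in these spots. Fibroblast spots read 133 and 235 CPM at E14.5 and 152 CPM in the E15.5 area of replicates 2, 3 and 4, the 3 areas tested (1.01 ± 0.14). Of all genes, 19.9% were higher in muscle, 15.3% in peripheral glia and 12.3% in fibroblast spots.

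Neuron spots had the least Hic1 of any region in 3 of the 4 areas, radial glia having slightly less in the E15.5 replicate 1 area. Neuron spots read 21.2 and 25.2 CPM at E14.5 and 20.6 and 18.6 CPM at E15.5, which is 0.187 to 0.271 of the level elsewhere (−2.12 ± 0.11, adjusted p = 8.89e-05 in edgeR). Radial glia spots varied, with 22.1, 79.5, 20.03 and 40.1 CPM (−1.36 ± 0.25, adjusted p = 0.00405). Multiciliated epithelium (−0.66) and bone (−0.35) were also lower and surface epithelium (0.33) higher. In multiciliated epithelium 15.1% of all genes were higher and 17.1% lower. The bone call did not pass without either E15.5 area (adjusted p = 0.175 and 0.173, edgeR), nor did the surface epithelium call without the E14.5 area of replicates 2, 3 and 4 (0.133) or the E15.5 replicate 1 area (0.326). Lens, with 2 areas left, passed as higher without the E15.5 area of replicates 2, 3 and 4 (0.00375).

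The stages overlapped for Hic1 in the whole head, and at each stage it was highest in the section with the fewest brain spots. Neuron and radial glia spots were 27.7% of the E14.5 replicate 1 section, 20.03%, 22.7% and 9.21% of E14.5 sections A, B and C, 27.7% of the E15.5 replicate 1 section, and 20.03%, 13.04% and 3.04% of E15.5 sections A, B and C. Hic1 was highest in section C at each stage, with 141 CPM at E14.5 and 112 CPM at E15.5. The replicate 1 section, with the most brain spots of each stage, was lowest at E14.5 (58.3 CPM). At E15.5 it read 94.3 CPM, above sections A (78.3) and B (90.3). In E15.5 section C the 16 brain spots read 107 CPM, close to the rest of that section. The part of brain spots in these levels was not tested. Outside neuron and radial glia spots the sections read 105, 101, 111 and 146 CPM at E14.5 and 123, 87.6, 97.6 and 112 CPM at E15.5. The overlap of the stages remained. By region, both E14.5 areas were above both E15.5 areas in 5 of 11 groups of spots and the reverse held in none, with differences from −0.65 in cartilage to 0.20 in spots of no region (log2).

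Hic1 was matched most closely across tissues by Lhfpl2 (r = 0.95), the basement membrane collagen gene Col4a1 (0.948), Smim1 (0.941), Phldb2 (0.94) and the Wnt and Norrin receptor gene Fzd4 (0.938), over the same 52 points. Of its list of 9 relatives and corepressors, 9 were tested in neuron spots, where Hic1 was lowest, and 4 were higher and 1 lower, against 37.9% of all genes higher and 39.8% lower. Hic2, the paralogue of Hic1, was higher (0.67 ± 0.09 SE), as were Arid1a (0.52 ± 0.08) and Bcl6 (0.37 ± 0.16). Hdac4 was lower (−0.13 ± 0.06). Hic1 and Hic2 thus differed in direction in these spots.

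Arhgef25 was higher in cartilage, bone, fibroblast and palatal mesenchyme spots and lower in the brain, mostly by less than 2-fold. In oral-palatal mesenchyme spots it read 201 and 246 CPM at E14.5 and 63.2 and 20.8 CPM at E15.5, which was 1.66-, 1.63-, 1.41- and 1.26-fold the level elsewhere (0.55 ± 0.09 SE, n = 4 areas, adjusted p = 0.00826 in edgeR), where 15.2% of all genes were higher and 17% lower. Cartilage (0.48 ± 0.09), fibroblast (0.48 ± 0.13) and bone (0.24 ± 0.07) were also higher. In CPM, bone was 1.22-, 1.03-, 1.01- and 1.03-fold the rest, and its call did not pass without TMM scaling (adjusted p = 0.342, edgeR) or with a z-score of at least 1.5 (0.125). Neuron (−0.51 ± 0.14) and radial glia (−0.27 ± 0.11) spots were lower. The largest gap in neuron spots was in the E15.5 area of replicates 2, 3 and 4, where the rest was 2.1-fold above them. The fibroblast and bone calls did not pass without the E14.5 area of replicates 2, 3 and 4 (adjusted p = 0.265 and 0.109, edgeR), and the radial glia call did not pass without any 1 of E14.5 replicate 1, E15.5 replicate 1 or E15.5 replicates 2, 3 and 4 (0.19, 0.267 and 0.23). Multiciliated epithelium passed as higher without the last of these (0.0799). The genes most like it were Ltbp3 (r = 0.87), P3h3 (0.868), Adamts10 (0.857), Fstl1 (0.852) and Col16a1 (0.846), which encode secreted or matrix proteins or, for P3h3, a collagen-modifying enzyme.

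Tmem134 was highest in surface epithelium and lowest in the brain. Surface epithelium was 1.88-, 1.66-, 1.43- and 1.29-fold above the rest in the order of areas (0.61 ± 0.10 SE, adjusted p = 0.00124 in edgeR), when 24.6% of all genes were higher there. Muscle (0.39 ± 0.09), bone (0.34 ± 0.09) and peripheral glia (0.31 ± 0.09) were higher as well. In CPM, bone was 1.39-, 1.16-, 1.16- and 0.966-fold the rest, and its call did not pass without TMM scaling (adjusted p = 0.129, edgeR). Neuron spots read 45.9 and 35.4 CPM at E14.5 and 18.6 and 11.5 CPM at E15.5 (−0.76 ± 0.08, adjusted p = 2.93e-04), and radial glia spots were lower by less (−0.56 ± 0.13). The peripheral glia call did not pass without the E14.5 area of replicates 2, 3 and 4 or the E15.5 replicate 1 area (adjusted p = 0.183 and 0.179, edgeR). Without the E15.5 area of replicates 2, 3 and 4, lens (0.0987), multiciliated (0.0904) and olfactory epithelium (0.0769) and oral-palatal mesenchyme (0.0632) passed as higher, as did cartilage without E15.5 replicate 1 (0.0985). Its closest genes were Anxa4 (r = 0.928), Zfp395 (0.927), S100a11 (0.925), Hif3a (0.919) and Bag3 (0.917), and it was closer to Hic1 (0.802) than Sgms2 was (0.229).

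Gpi1 varied across tissues about as much as the median gene. Its range over regions averaged 1.12 log2 units, against a median of 1.07 over all genes, and 8 of 12 regions did not pass. The range was wider than the median in the E14.5 area of replicates 2, 3 and 4 (1.45 against 0.93), where neuron spots had 19.8 and olfactory epithelium 55.6 CPM. Olfactory epithelium was 1.31-, 2.02-, 0.978- and 1.01-fold the rest and did not pass (0.30 ± 0.17 SE, n = 4 areas, adjusted p = 0.294 in edgeR). Muscle spots were 1.35-, 1.36-, 1.498- and 1.36-fold above the rest (0.57 ± 0.08 SE, n = 4 areas, adjusted p = 0.00106 in edgeR), and this ratio was alike in the area of low Gpi1 and the others. Peripheral glia (0.38 ± 0.09) and surface epithelium (0.24 ± 0.09) were higher and neuron spots lower (−0.52 ± 0.09), the last at 0.548 to 0.764 times the rest in the 4 areas. The peripheral glia call did not pass without the E14.5 area of replicates 2, 3 and 4 (adjusted p = 0.118, edgeR). The surface epithelium call did not pass without E14.5 replicate 1 (0.112), E14.5 replicates 2, 3 and 4 (0.201) or E15.5 replicate 1 (0.292).

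The glycolysis genes tested moved in both directions in muscle. Tpi1, Eno1, Ldha and Ldhb were not counted in these data and Aldoa was left out, so the list covers a part of the pathway. Of 12 tested, 3 were higher and 6 lower, with a median of −0.22 against −0.02 over all genes, when 19.9% of all genes were higher and 24.7% lower. Pfkm, the muscle phosphofructokinase, was higher (0.74 ± 0.11 SE), as were Hk2 (0.46 ± 0.17) and Pgk1 (0.23 ± 0.08). Aldoc (−2.58 ± 0.17), the aldolase of brain, Pfkp (−1.12 ± 0.12), the platelet phosphofructokinase, and Eno2 (−0.89 ± 0.14), the neuronal enolase, had the largest falls of the 6. Gapdh, which every cell uses, was listed at 0.259 to 0.595 CPM in the 4 areas. Gpi1 was most like Mtr (r = 0.832), Erbb3 (0.82), Vasp (0.816), Ybx3 (0.812) and Tead4 (0.812), of which Erbb3 was in the peripheral glia list.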

How the data were processed

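Visium libraries of 4 capture areas were analysed, 2 per stage. The deposited values are unnormalized UMI counts for each gene in each spot. Per the file headers the authors ran Space Ranger, version 1.3.1 on both replicate 1 areas and version 2.0.0 on both of the remaining areas. The probe set is not given in the sources used here. All tissue spots with counts were used, without a depth filter or a doublet caller. Sections were separated as connected groups of at least 100 spots. UMIs were summed per area, region and section. Tests used edgeR 4.0.16 (TMM, filterByExpr, quasi-likelihood F test, Benjamini-Hochberg over all genes) at a threshold of 0.1 against no change. The study's rate of 0.1 was for changes past a minimum size, which was not required here. A spot joined the list with its highest z-score of log2(CPM + 100) if at least 1. The fits were tested on simulated data, in which false calls made up a larger share of the calls than the threshold allows, for the stage and for bone. DESeq2 1.42.0, limma 3.58.1, other filters, depths, thresholds, blocks and leaving out areas were tried. Symbols shared by 2 identifiers (Aldoa) were left out of lists. Members and lists were chosen with earlier results of these data known. Named genes were the 5 members, the 5 genes most like each, and up to 3 called genes per direction of each list, and the result of 1 list is not reported here.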

Additional observations from a re-analysis of the deposited data

Results flagged for a closer look

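In the 8 sections, with 4 per stage, a section stood far from the rest of its stage by Dixon's 95% criterion in 5 of 10 sets of a gene and a stage. The genes were picked with their differences between areas in view, and the share over all genes is not given here. This count is therefore a description. Sections A, B and C of an area share a library, so such sets are not 4 independent values. Arhgef25 was 46.0 CPM in the E15.5 replicate 1 section against 15.4 to 19.1 CPM in the other E15.5 sections. Gpi1 was 317 CPM in the E14.5 replicate 1 section against 27.6 to 30.7 CPM in the others of that stage. Tmem134 was 96.9 CPM in E14.5 section A, the shallow one. Sgms2 was 17.9 CPM in E14.5 section C, the lowest of its stage, and 85.2 CPM in E15.5 section A, the highest, where bone spots were 18.4% of spots.

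In 4 pairs of a gene and a region, the E14.5 areas were all above and the E15.5 areas all below the rest of their own tissue. The difference between the stages was not tested. The share of such splits over all genes is not given here, and some of the ratios lie close to 1, so the count is a description. Arhgef25 in skeletal muscle was 1.06 and 1.21 times the rest at E14.5 and 0.923 and 0.947 times at E15.5 (mean 0.935). Arhgef25 in surface epithelium was 1.03 and 1.18 against 0.868 and 0.943 (mean 0.905). Gpi1 in multiciliated epithelium was 1.12 and 1.02 against 0.919 and 0.952 (mean 0.935). Hic1 in cartilage was 1.78 and 1.003 against 0.745 and 0.67 (mean 0.707).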

How the results depend on the processing

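Depth limited the E14.5 replicate 1 area, and 2 areas per stage limited every stage value. With no capture area block, 10 of 60 gene and region pairs passed in place of 32, 5 of Hic1 and 5 of Sgms2, and 35101 gene and region pairs over all genes in place of 65240. DESeq2 called 37 genes between stages in place of 0. With each group of spots at equal weight the Sgms2 stage difference was 0.42 in place of 0.88 on the log2(CPM + 1) scale. That of Hic1 was −0.28 in place of 0.21. Leaving out 1 area at a time gave 27 to 35 passing pairs, 44973 to 66578 gene and region pairs over all genes, 0 to 78 genes between stages (78 without E15.5 replicate 1), and stage differences (log2) of −3.14 to −1.67 for Arhgef25, −1.65 to −0.95 for Tmem134, −0.36 to 0.67 for Hic1, 0.67 to 1.03 for Sgms2 and 0.45 to 3.82 for Gpi1. Gpi1 was at 0.45 without the E14.5 area of replicates 2, 3 and 4 and at 3.82 without E14.5 replicate 1. Hic1 was at 0.67 and −0.36 without these same areas. Without TMM, the Arhgef25 and Tmem134 calls in bone did not pass (edgeR adjusted p = 0.342 and 0.129), and at an adjusted p under 0.05 the Arhgef25 radial glia and Gpi1 surface epithelium calls did not. With a z-score of at least 1.5 the Arhgef25 bone call did not pass (0.125), and in DESeq2 the Arhgef25 radial glia call did not (0.154) while Sgms2 in lens did (0.0608). Without the E15.5 area of replicates 2, 3 and 4, 7 pairs passed in addition. No pair turned its sign under any of these 12 alternatives. The cause of these shifts was not tested. The replicate number as a block gave stage differences of −2.39, −1.31, 0.14, 0.85 and 2.12 for Arhgef25, Tmem134, Hic1, Sgms2 and Gpi1, with 0 genes called in edgeR. With 2 pairs, the numbers were not shown to pair the areas (r = 0.246 between the replicate deviations of the stages over 15609 genes). Sections as samples, which share libraries, left 0 genes called between stages in edgeR and limma. Leaving out the shallow E14.5 section A, chosen after seeing the data, changed none of the 60 calls.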
